A study of Homo sapiens with 27 samples.

Results

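FHIT, WWOX, MACROD2, LRP1B and IMMP2L are very long genes that lie at common fragile sites, and they are described here in genome-wide maps of O6-methylguanine from LN-229 cells. They were chosen by name, as 5 of the 20037 protein-coding genes of the RefSeq table for GRCh38. Their gene bodies were FHIT at chr3:59747277-61251452 (1504176 bp), WWOX at chr16:78099654-79212667 (1113014 bp), MACROD2 at chr20:13995516-16053197 (2057682 bp), LRP1B at chr2:140231423-142131016 (1899594 bp) and IMMP2L at chr7:110662644-111562492 (899849 bp). By length they ranked 17, 58, 7, 9 and 91 among all genes. Together they spanned 7.47 Mb in 149 windows of 50 kb and, added over the 27 libraries, held 153701 marks at guanine, or 0.262% of all autosomal ones, and 321044 marks at any base. A position marked in several libraries counts in each. Exons and introns within them were not analysed here.

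Common fragile sites are chromosomal regions that show gaps and breaks when DNA replication is slowed. Many of them lie within very long genes that replicate late, and internal deletions of such genes are frequent in cancer cell lines. FHIT encodes a hydrolase of diadenosine polyphosphates, WWOX an oxidoreductase with WW domains, and MACROD2 a macrodomain protein that removes mono-ADP-ribose from proteins. LRP1B encodes an endocytic receptor of the LDL receptor family, and IMMP2L a subunit of the peptidase of the mitochondrial inner membrane. Temozolomide (TMZ) is an alkylating drug given in glioblastoma whose toxic product is O6-methylguanine, and MGMT is the enzyme that transfers this methyl group to itself and so restores guanine.

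O6-MeG-seq marks O6-methylguanine at single positions. DNA was sheared and joined to adapters, damaged fragments were enriched with an antibody, and the place where a polymerase stalled gave the position. The cells were LN-229, an established glioblastoma line, either transfected with MGMT or carrying the transfection control, which the labels call WT. The promoter that drives MGMT, and whether the transfected line is a clone, are not given in the sources used here. Cells received 1 mM TMZ, or 1% DMSO as solvent, in 1 exposure or in 3 that followed each other every 4 h. Their DNA was isolated 24 h after the exposures began. These 8 cell groups and a group of naked DNA exposed to 1 mM TMZ had 3 libraries each, 27 in all. Of the naked DNA libraries, 1 came from MGMT-transfected cells and 2 from cells without MGMT, so single naked DNA values of MGMT cells have no replicate check. The labels call replicates biological, but all are of the same line and its transfected derivative, so p-values cover only the spread between these samples.

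Each library is given as positions that were marked at least once, called sites, each with its base and a score, and only sites of score 30 or more were used unless stated. Autosomal sites of all bases numbered 594592 to 12443865 per library and those at G 165195 to 8822222. Each of the 5 genes held between 48 G sites (FHIT in the first WT solvent library with 1 exposure) and 8580 (MACROD2 in the first naked DNA library). Some libraries stood apart from their labels. The first MGMT solvent library with 1 exposure had 43.7% of its sites at G (Wilson 95% interval 43.6 to 43.8), whereas the other MGMT solvent libraries had 19.0% to 22.1% and its own TMZ counterpart 37.4%. The first WT solvent library with 1 exposure had 27.8%. The libraries also fell into 5 sets, joined through pairs that shared positions at over 1.6 times the rate of the median pair. This rate is the number of shared autosomal sites at A, C and T over the product of both libraries' counts of such sites. Of 351 pairs, 48 exceeded 1.6 times, not all pairs of a set among them. The highest value was 289 within sets and 1.40 across sets. The first set held replicate 1 of all groups with 1 exposure and of naked DNA.

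To show what a marked sequence looks like, stretches before an annotated start of FHIT and MACROD2 are printed 5′ to 3′ on the gene's strand. They come from the RefSeq promoter windows of these genes (GRCh38.p14) with the most marked guanines, 12 in MACROD2 and 11 in FHIT. Only the 250 bases upstream of the start are printed. A capital G was marked on the printed strand in at least 1 TMZ-treated cell or naked DNA library, and a capital C pairs with a G marked on the opposite strand.
FHIT, minus strand, chr3:61251453-61251702: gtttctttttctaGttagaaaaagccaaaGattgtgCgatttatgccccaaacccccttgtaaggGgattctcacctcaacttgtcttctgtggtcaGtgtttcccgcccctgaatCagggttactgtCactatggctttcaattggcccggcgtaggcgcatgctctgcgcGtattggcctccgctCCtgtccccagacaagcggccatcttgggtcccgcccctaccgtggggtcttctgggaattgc
MACROD2, internal start, plus strand, chr20:15196590-15196839: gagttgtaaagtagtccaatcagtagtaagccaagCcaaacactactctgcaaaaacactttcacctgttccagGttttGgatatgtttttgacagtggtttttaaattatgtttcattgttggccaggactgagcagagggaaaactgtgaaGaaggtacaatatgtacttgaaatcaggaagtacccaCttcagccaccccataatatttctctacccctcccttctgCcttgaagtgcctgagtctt
The FHIT stretch holds 10 marked guanines, of which 6 follow a purine (A or G) on their own strand. In the MACROD2 stretch 5 of 6 do.

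The RefSeq table held 6 promoter windows of 300 bases for 4 of the genes, and LRP1B is named only. Of 39 marks at G counted there in TMZ-treated cells and naked DNA, 28 followed a purine, or 71.8%. Of 901 guanines counted, 512 did, or 56.8%. This count covers fewer marks and guanines than the windows hold, and which ones it leaves out is not given. Over all 35116 promoter windows the share was 80.3% in WT cells under TMZ, 79.0% in MGMT cells under TMZ, 78.7% in WT naked DNA and 57.6% in WT cells under solvent, against 58.4% of all guanines. The share counted in these genes lay between that of all guanines and that of TMZ-treated libraries over all windows. It rests on few marks and on an incomplete count, so no conclusion is drawn from it. No promoter position of these genes was marked in more than 2 libraries.

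Within the 5 genes the share of sites at G was higher after TMZ than under solvent. In WT solvent controls a mean of 18.7% (LRP1B) to 22.1% (WWOX) of all sites in a gene were at G, beside 21.5% over the autosomes. In WT cells under TMZ the means were 49.5% (LRP1B) to 54.6% (WWOX) beside 54.3%, and in WT naked DNA 65.3% to 69.7% beside 69.6%. No WT library under TMZ overlapped a solvent one in any of the 5 genes: LRP1B had at most 24.8% in 6 solvent libraries and at least 38.2% in 6 TMZ libraries. This was general: all 114 other autosomal genes of at least 800 kb (100%), and 58.7% of the 15801 genes with sites in each of these libraries, did not overlap either, and over the autosomes the values were at most 27.8% and at least 41.9%. In MGMT cells the means were 20.9% to 25.7% under solvent and 42.9% to 49.8% under TMZ, and these ranges overlapped through the solvent library with the high share of G. LRP1B had the lowest and WWOX the highest mean share of the 5 genes in every genotype and treatment. These shares were described and not tested.

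G-site density, the number of G sites per megabase divided by that of all autosomes of the same library, differed more among the 5 genes than between drug and solvent. In WT cells under TMZ, MACROD2 had 1.23, 1.32 and 1.42 times the autosomal mean (lowest, median and highest of 6 libraries), IMMP2L 1.06, 1.13 and 1.34, and WWOX 1.12, 1.14 and 1.21. LRP1B had 0.845, 0.886 and 1.05, and FHIT 0.627, 0.659 and 0.725. MACROD2 and IMMP2L, and IMMP2L and WWOX, overlapped between libraries, whereas WWOX lay wholly above LRP1B, and LRP1B wholly above FHIT. The marked guanines of FHIT were thus the sparsest of the 5 genes in every WT library under TMZ.

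In MGMT cells under TMZ the genes lay closer together. MACROD2 had 0.965, 0.999 and 1.14 times the autosomal mean, WWOX 0.955, 0.985 and 1.09, and IMMP2L 0.791, 0.822 and 0.998. LRP1B had 0.687, 0.767 and 0.827, and FHIT 0.630, 0.674 and 0.704. Each gene overlapped its neighbour in this order. Because densities are per megabase and not per guanine, they also reflect how rich a gene is in G.

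Naked DNA, which carries no chromatin and is exposed outside cells, gave gene levels that lay within the range of TMZ-treated cells of the same genotype in some genes and outside it in others. FHIT had 0.704 and 0.716 times the autosomal mean in the 2 WT naked libraries and 0.682 in the MGMT one. WWOX had 1.25 in both WT libraries and 1.04 in the MGMT one, and MACROD2 1.3 in both and 0.902. LRP1B had 0.871 and 0.884 against 0.711, and IMMP2L 1.09 and 1.11 against 0.841. All 5 genes were thus lower in the MGMT naked library than in both WT ones by more than those 2 differed, FHIT by the least. By any margin, the MGMT naked library lay below both WT ones in 34.6% of all genes tested and in 59.6% of the 114 other long genes. Relative to naked DNA of the same genotype, mean log2 levels in WT cells under TMZ were -0.10 (SD 0.0700) for FHIT, -0.13 (0.0392) for WWOX, 0.03 (0.0733) for MACROD2, 0.06 (0.115) for LRP1B and 0.07 (0.113) for IMMP2L. In MGMT cells under TMZ they were -0.02 (SD 0.0597), -0.07 (0.0696), 0.18 (0.0850), 0.09 (0.0972) and 0.00 (0.122) in the same order. All 6 WT libraries of WWOX under TMZ lay below both WT naked libraries, and all 6 MGMT libraries of MACROD2 under TMZ lay above the MGMT naked library. The first held for 3.23% of all genes tested and 7.02% of the other long genes, and the second for 6.95% and 15.8%.

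**Figure D1:**
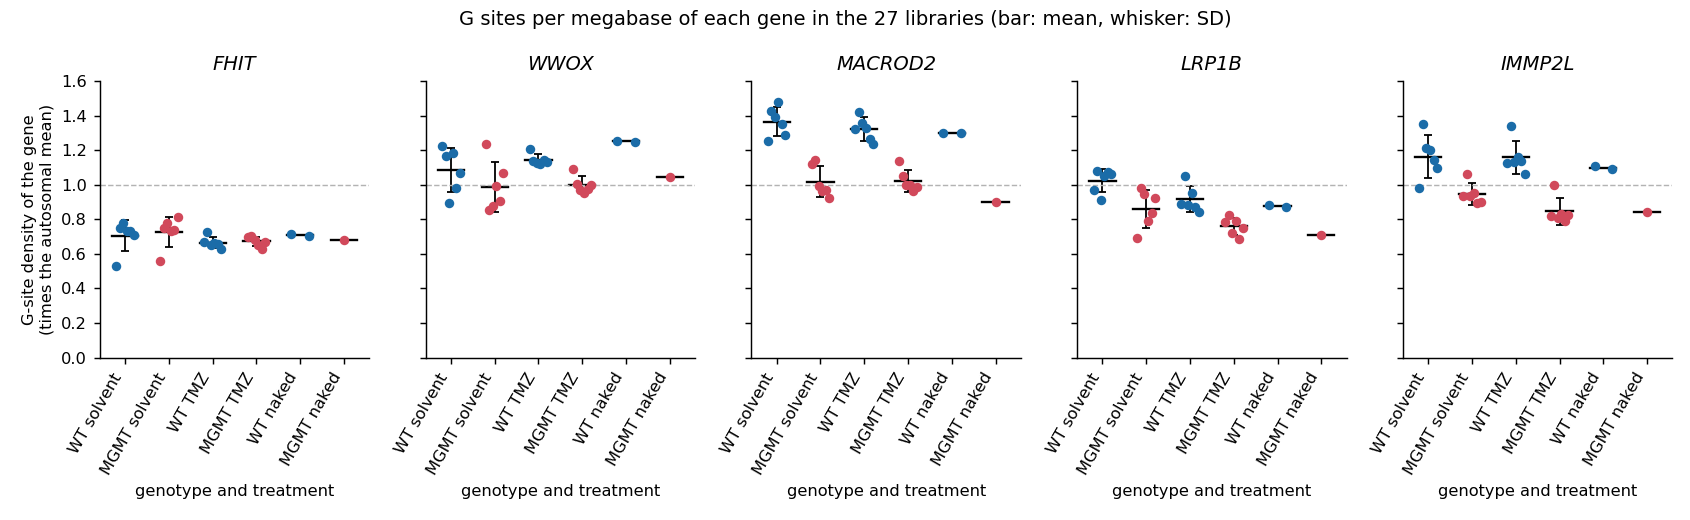
Density of G sites in each gene (times the autosomal mean of the library, y axis) in the 27 libraries by genotype and treatment (x axis). Points are libraries, bars means and whiskers SD. FHIT lies below 1 in all libraries, and WWOX, MACROD2, LRP1B and IMMP2L are lower in every MGMT library than in any WT library under TMZ, as are 1.82% of all genes tested.

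No gene of the 5 differed between TMZ-treated cells and naked DNA in limma voom fitted over all genes, where 0.0678% of 17702 genes were called (0.0339% higher and 0.0339% lower) at a Benjamini-Hochberg adjusted p of at most 0.05 and 2026 had an unadjusted p under 0.05. WWOX gave the largest log2 difference, -0.11 (95% interval -0.21 to -0.02; adjusted p = 0.343). LRP1B gave 0.07 (-0.05 to 0.19; adjusted p = 0.731), MACROD2 0.05 (-0.08 to 0.17; 0.836) and IMMP2L 0.01 (-0.12 to 0.13; 0.980). The first set is the only 1 that holds both cells and naked DNA, and there these 3 were lower in cells, without a test: LRP1B gave -0.08, MACROD2 -0.08 and IMMP2L -0.20, from 2 cell libraries and 1 naked one. Without that set they gave 0.15, 0.15 and 0.10, and none of the 5 was called, so the sign of these 3 is not settled. WWOX gave -0.13 within the set and -0.07 without it, and FHIT -0.07 and -0.01. FHIT gave -0.04 (-0.14 to 0.06; adjusted p = 0.831). All 5 intervals lie within 0.21 of 0 on the log2 scale. This fit takes naked DNA as 1 group of 2 WT libraries and 1 MGMT library, whose levels are given above. With naked DNA split by genotype none of the 5 was called either, and the estimates were -0.03 for FHIT, -0.07 for WWOX, 0.14 for MACROD2, 0.12 for LRP1B and 0.07 for IMMP2L (adjusted p from 0.291 to 0.894). Of the 149 windows none was called either (0% of 56335 windows, 2813 with an unadjusted p under 0.05).

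The clearest difference in these genes was between the cell lines. Under TMZ, G-site density was lower in MGMT than in WT cells in 4 of the 5 genes by limma voom, where 6.61% of all genes were called, 4.45% higher and 2.16% lower. IMMP2L fell by 0.46 on the log2 scale (SE 0.0704, adjusted p = 2.13e-05), to 0.727 of the WT level, and MACROD2 fell by 0.38 (SE 0.0602, adjusted p = 4.53e-05), to 0.771. LRP1B fell by 0.28 (SE 0.0603, adjusted p = 0.00216) and WWOX fell by 0.19 (SE 0.0496, adjusted p = 0.00963). In the library values above, no MGMT library under TMZ reached the lowest WT library in any of these 4 genes. The same held for 1.82% of all genes tested and for 9 of the 114 other long genes (7.89%), and the reverse, MGMT above every WT library, for 3.07% and 10.5%.

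FHIT, with a log2 difference of 0.02, did not pass the test (95% interval -0.09 to 0.13, adjusted p = 0.932), and its libraries overlapped. Among 20 other genes at common fragile sites the median difference was 0.00, with 6 called higher and NAALADL2 alone called lower (-0.29, adjusted p = 0.00150). Of those called higher, DMD (1.12), IL1RAPL1 (1.15) and DIAPH2 (0.38) lie on the X chromosome, whereas the 5 genes are autosomal. Among 114 other autosomal genes of at least 800 kb, 16 were called higher and 9 lower, with a median of -0.03, beside -0.01 over all genes tested. The 5 genes had a median of -0.28.

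Within the sets of libraries that shared sites, all 4 genes remained lower in MGMT cells under TMZ. IMMP2L gave -0.46, -0.45 and -0.46 in sets 1, 2 and 3, MACROD2 -0.22, -0.44 and -0.37, LRP1B -0.18, -0.32 and -0.26, and WWOX -0.14, -0.19 and -0.22. Calls of 2 genes were lost when a replicate number was left out of every group, while their estimates stayed between -0.31 and -0.22 for LRP1B and -0.20 and -0.18 for WWOX. Each such omission takes away 9 of the 27 libraries. Without replicate 2 the adjusted p was 0.0780 for LRP1B and 0.181 for WWOX, and without replicate 3 it was 0.118 for WWOX. With median-of-ratios library sizes and limma-trend, in place of trimmed log ratios and voom, it was 0.0827 for LRP1B and 0.236 for WWOX. With the sets as a block it was 0.0618 for WWOX.

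Sites of all bases in solvent controls, where no TMZ was present, showed the same 4 genes lower in MGMT cells. MACROD2 had 1.42, 1.49 and 1.54 times the autosomal mean in WT solvent libraries (lowest, median and highest of 6) and 0.977, 1.04 and 1.11 in MGMT ones. IMMP2L had 1.16, 1.38 and 1.40 against 0.967, 1.04 and 1.08, and LRP1B 1.09, 1.18 and 1.25 against 0.841, 0.963 and 1.07. In these 3 genes no MGMT library reached the lowest WT library, as in 1.07% of all genes tested and 14 of the 114 other long genes (12.3%). The reverse held for 2.03% and 5.26%. WWOX had 0.951, 1.04 and 1.15 against 0.870, 0.892 and 1.10, and FHIT 0.758, 0.775 and 0.796 against 0.633, 0.769 and 0.800, and both overlapped. By limma voom 6.44% of 18226 genes were called in this comparison, 4.38% higher and 2.05% lower. MACROD2 fell by 0.51 (SE 0.0632, adjusted p = 3.63e-06), IMMP2L fell by 0.36 (SE 0.0805, adjusted p = 0.00281), LRP1B fell by 0.28 (SE 0.0677, adjusted p = 0.00591) and WWOX fell by 0.21 (SE 0.0553, adjusted p = 0.0125). FHIT gave -0.04 (SE 0.0619, adjusted p = 0.829).

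Of the 20 other genes at fragile sites, RORA, DMD, IL1RAPL1 and DIAPH2 were higher in MGMT cells in this comparison and NAALADL2 was lower (-0.25). All of those that were higher except RORA lie on the X chromosome. Of the 114 other long genes, all autosomal, 11 were higher and 11 lower. MACROD2 alone of the 5 remained called whichever replicate number was left out. Without replicate 2 the adjusted p was 0.0924 for IMMP2L, 0.0645 for LRP1B and 0.220 for WWOX, and without replicate 3 it was 0.0681 for LRP1B and 0.123 for WWOX. In the 4 sets with a pair, MACROD2 gave -0.35, -0.49, -0.56 and -0.57 and IMMP2L -0.17, -0.37, -0.42 and -0.34. LRP1B gave -0.37, -0.19, -0.29 and -0.40, and WWOX -0.05, -0.18, -0.28 and -0.22.

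Setting the genotype difference under TMZ against that under solvent, the interaction term of limma voom called none of the 5 genes (0.00565% of all genes called, 859 of 17702 with an unadjusted p under 0.05). Its estimates were 0.02 for FHIT, -0.02 for WWOX, 0.06 for MACROD2 and -0.01 for LRP1B, with 95% intervals inside -0.23 to 0.28, and -0.14 for IMMP2L (-0.42 to 0.14). When G sites were taken relative to sites at A, C and T of the same gene, none of the 5 was called lower in MGMT cells under TMZ, and no gene of 15746 was called in either direction. IMMP2L, MACROD2, LRP1B and WWOX were thus lower in MGMT cells also at other bases and without the drug. Copy number was not measured here.

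**Figure D2:**
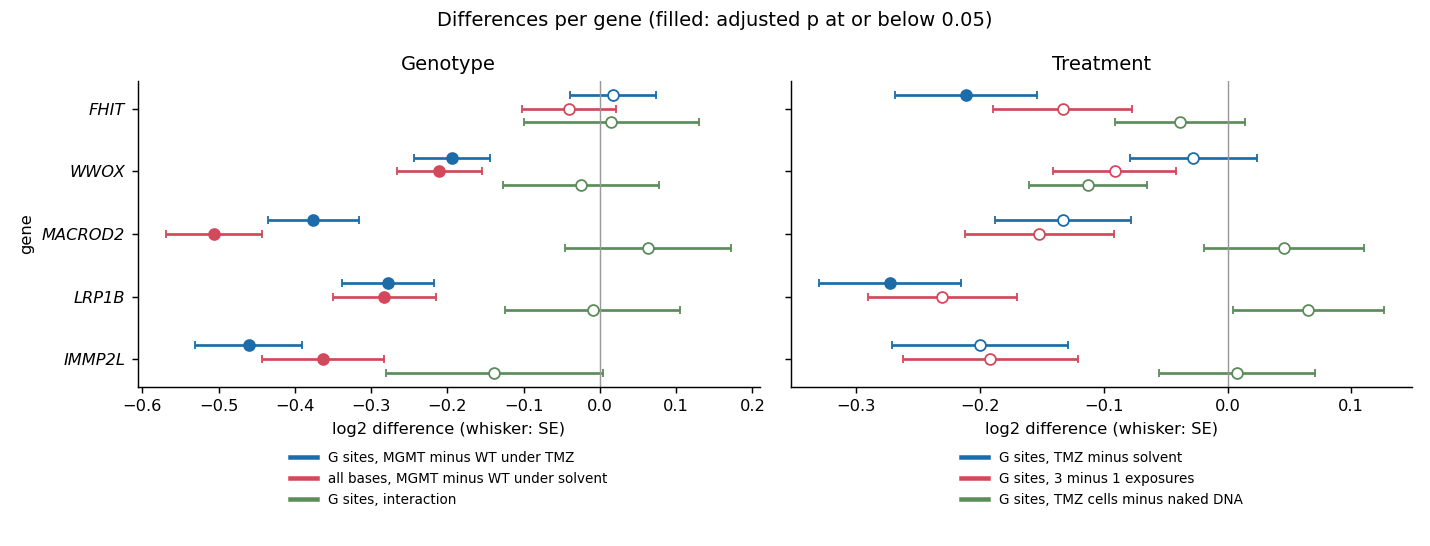
Log2 differences for the 5 genes (y axis) with whiskers of 1 SE, filled where the adjusted p was at or below 0.05. MGMT minus WT differences in G sites under TMZ and in all-base sites under solvent lie side by side: MACROD2, IMMP2L, LRP1B and WWOX are below 0 in both, and FHIT is near 0.

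The surroundings of the genes differed in whether they shared this shift. For MACROD2 the all-base log2 difference under solvent was -0.50 in the gene, -0.46 in the 5 Mb on each side and -0.30 in the rest of chromosome 20. For IMMP2L it was -0.35 in the gene, -0.38 in its flanks and -0.08 in the rest of chromosome 7. LRP1B gave -0.29 in the gene, -0.04 in its flanks and 0.19 in the rest of chromosome 2. WWOX gave -0.20, -0.08 and 0.07 in the same order, and FHIT -0.05, 0.00 and -0.12. MACROD2 and IMMP2L thus moved with their neighbourhood, whereas LRP1B and WWOX were further below WT than their flanks. Naked DNA, from 1 MGMT library and 2 WT libraries, gave -0.51 for MACROD2, -0.40 for IMMP2L, -0.31 for LRP1B, -0.27 for WWOX and -0.06 for FHIT. The differences between gene and flank were described and not tested.

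Between TMZ and solvent, LRP1B and FHIT were called lower in G sites under TMZ, with libraries scaled by trimmed log ratios. In WT cells LRP1B had 0.914, 1.06 and 1.08 times the autosomal mean under solvent against 0.845, 0.886 and 1.05 under TMZ, and FHIT 0.530, 0.732 and 0.779 against 0.627, 0.659 and 0.725. In MGMT cells LRP1B had 0.690, 0.880 and 0.983 under solvent and FHIT 0.558, 0.742 and 0.811. The solvent and TMZ libraries overlapped in both genes and both genotypes. By limma voom over both genotypes LRP1B fell by 0.27 (SE 0.0573, adjusted p = 0.00164) and FHIT fell by 0.21 (SE 0.0573, adjusted p = 0.0137), in a comparison where 10.1% of all genes were called, 5.48% higher and 4.64% lower. IMMP2L gave -0.20 (SE 0.0712, adjusted p = 0.0622), MACROD2 -0.13 (SE 0.0547, adjusted p = 0.11) and WWOX -0.03 (SE 0.0512, adjusted p = 0.783).

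Lower estimates under TMZ were common among long genes. Of the 20 other genes at fragile sites 13 were called lower, and of the 114 other long genes 68 were, with medians of -0.25 and -0.21 beside -0.20 for the 5 genes and 0.00 for all genes tested. With the autosomal total as library size, 79.6% of the called genes were higher under TMZ in place of 54.2%, and the adjusted p of FHIT was 0.0592. The median gene then gave 0.09, beside 0.00 with trimmed log ratios. The estimates above are thus not plain differences in the share of autosomal G sites, which were smaller. The FHIT call was lost without replicate 2 (adjusted p = 0.199) or 3 (0.253), and the LRP1B call without replicate 2 (0.0619). Within the first set FHIT was higher under TMZ, by 0.33, and in sets 2 and 3 it gave -0.15 and -0.17. LRP1B gave 0.03, -0.18 and -0.19. The first set contains both solvent libraries with a raised share of G. Without its 5 libraries, limma voom called FHIT (-0.28, adjusted p = 9.7e-05), LRP1B (-0.32, 3.7e-05), IMMP2L (-0.23, 0.0205) and MACROD2 (-0.16, 0.0344) lower under TMZ. The same 4 were called when limma voom was fitted over only the 24 cell libraries, with or without the replicate number as a block. Without the first MGMT solvent library with 1 exposure alone, IMMP2L was called (-0.21, adjusted p = 0.0399) and MACROD2 was not (-0.13, 0.103). Relative to sites at other bases of the same gene none of the 5 was called.

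Between 3 exposures to TMZ and 1, none of the 5 genes passed the test by limma voom (0% of genes called, 1541 of 17702 with an unadjusted p under 0.05). All 5 estimates were below 0, from -0.09 for WWOX to -0.23 for LRP1B, whose adjusted p of 0.270 was the lowest of the 5. FHIT gave -0.13, MACROD2 -0.15 and IMMP2L -0.19. Within sets 2 and 3, which hold both exposures, the differences were mostly smaller and had no test. WWOX gave -0.04 and 0.03, MACROD2 -0.07 and -0.06, FHIT -0.11 and -0.03, LRP1B -0.23 and -0.14 and IMMP2L -0.27 and -0.06. The first set holds cells with 1 exposure alone, and without it LRP1B was called (-0.26, adjusted p = 0.0141). The 114 other long genes had a median of -0.14, so estimates of this size were usual for long genes. When limma voom was fitted over only the groups compared, LRP1B (adjusted p = 0.00485), MACROD2 (0.0214) and IMMP2L (0.0421) were called lower after 3 exposures, and these 3 were also called in that fit with the replicate number as a block. Over all 27 libraries the block called none of the 5, nor did the sets as a block.

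Along the genes, the lower all-base density of MGMT cells under solvent was spread over nearly all of MACROD2 and IMMP2L and was uneven in LRP1B and WWOX. Of the 149 windows of 50 kb, 67 were called lower and none higher in MGMT cells by limma voom over all windows, where 12% of 56480 windows were called, 7.63% higher and 4.41% lower. MACROD2 had 38 of 41 windows called, IMMP2L 10 of 18, LRP1B 14 of 38, WWOX 5 of 22 and FHIT 0 of 30. Estimates were below 0 in all 41 windows of MACROD2 and all 18 of IMMP2L, in 33 of LRP1B, in 18 of WWOX and in 17 of FHIT. Leaving out replicate 2 or 3 reduced the count of 67 to 18 or 31.

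Levels within a gene varied by different amounts. The windows named next have the lowest and highest mean over the 12 solvent controls of both genotypes, so either genotype alone can have its extreme elsewhere. In FHIT the highest window was chr3:59800001-59850000, with 1.05 times the median autosomal window in WT and 1.09 in MGMT solvent libraries, and the lowest chr3:60800001-60850000, with 0.358 and 0.245. In LRP1B the highest, chr2:140300001-140350000, had 1.78 and 1.6, and the lowest, chr2:141050001-141100000, had 0.209 and 0.0279. These were the deepest dips of the 5 genes.

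The other 3 genes had no such dip. MACROD2 had 1.10 in WT and 0.828 in MGMT libraries in its lowest window by this mean, chr20:15500001-15550000, and 2.32 and 1.61 in its highest, chr20:14150001-14200000. IMMP2L had 1.08 and 0.834 at chr7:111100001-111150000, its lowest, and 1.70 and 1.39 at chr7:111250001-111300000, its highest. WWOX had 0.979 and 0.701 at chr16:78300001-78350000, its lowest, and 1.36 and 1.17 at chr16:78150001-78200000, its highest. The lowest window of any single genotype in these 3 genes had 0.687, in WWOX of MGMT cells. Apart from the highest FHIT window, all windows named here were lower in MGMT cells.

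**Figure D3:**
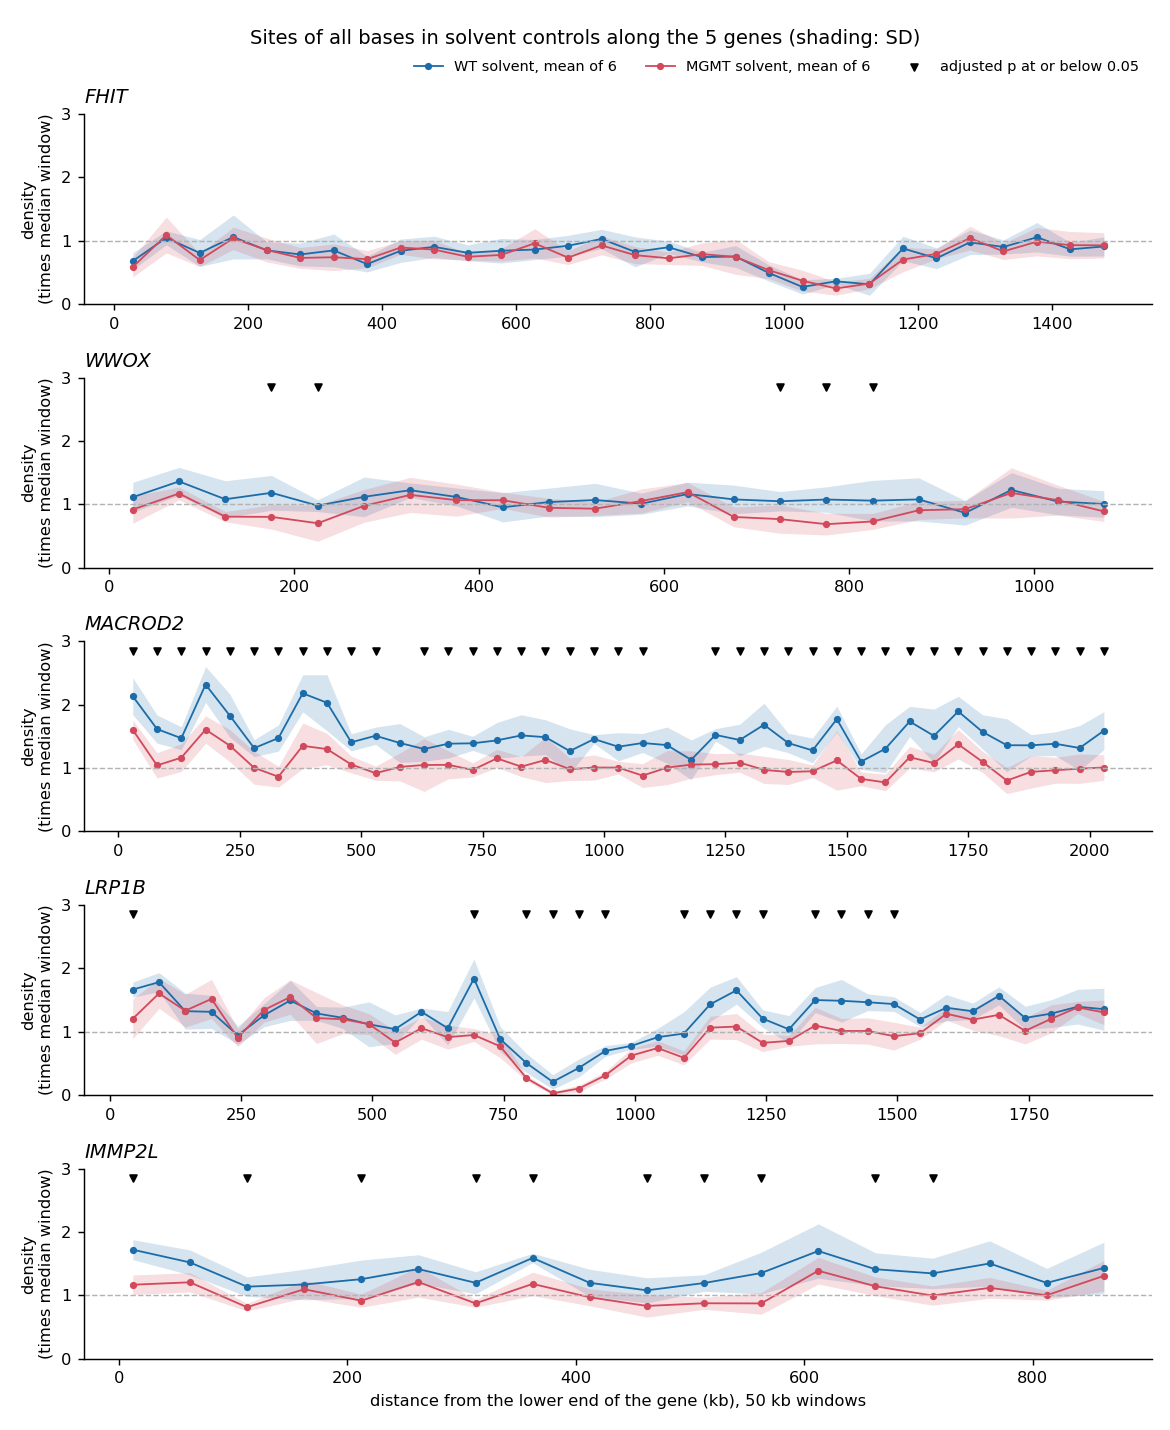
All-base density in solvent controls (times the median autosomal window, y axis) per 50 kb window along each gene (distance from its lower coordinate, x axis) for WT and MGMT cells. MACROD2 and IMMP2L are lower in MGMT cells along their length, FHIT dips to 0.245 in MGMT cells at its lowest window, and LRP1B falls to 0.0279.

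Windows of LRP1B had the 2 lowest estimates of all 56480 windows tested. A window was tested if 3 or more libraries of any group reached 10 sites, so it can enter through WT libraries alone. Estimates from few MGMT sites lie near the floor of the counts, and their size is uncertain. At chr2:141050001-141100000 the MGMT solvent libraries held 8 sites and the WT ones 52, and the density fell by 2.42 on the log2 scale (SE 0.619, adjusted p = 0.00675), or 5.35-fold. At chr2:141100001-141150000 there were 29 and 96 sites, and it fell by 1.80 (SE 0.328, adjusted p = 0.000309), or 3.48-fold. At chr2:141150001-141200000, the window with the fifth lowest estimate, there were 80 and 167 sites, and it fell by 1.10 (SE 0.206, adjusted p = 0.000406). The 3 windows adjoin each other.

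In the other genes the differences were smaller. The lowest estimates were -0.89 in MACROD2 at chr20:15300001-15350000 (SE 0.132, adjusted p = 1.72e-05), -0.76 in WWOX at chr16:78850001-78900000 (SE 0.173, adjusted p = 0.00268) and -0.54 in IMMP2L at chr7:110650001-110700000 (SE 0.124, adjusted p = 0.00278). The next in MACROD2 began at 15450001 (-0.76) and 14350001 (-0.73), and those in IMMP2L at 111200001 (-0.51) and 110850001 (-0.50). In WWOX the next 2 began at 78900001 (-0.60) and 78800001 (-0.52), so that its 3 lowest windows adjoin as those of LRP1B do.

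Only FHIT and LRP1B had windows under 0.5 times the median autosomal window in the mean of the 12 solvent controls, 3 each, or 6 of 149 where 5.38% of 54909 autosomal windows were as low. The FHIT windows, starting at chr3:60750001, 60800001 and 60850001, had 0.318, 0.302 and 0.316. The LRP1B windows, starting at chr2:141000001, 141050001 and 141100001, had 0.386, 0.118 and 0.267, and that of 0.118 was the only 1 under 0.25 (3.58% of all windows). With no minimum score no window of the 5 genes was under 0.25. Neither share exceeded that of all windows.

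Bins of 10 kb placed the edges of these stretches, taking runs of at least 3 bins below 0.5 times the autosomal mean over all libraries of a genotype. In FHIT such a run covered chr3:60760001-60900000 in both genotypes, 140 kb with the same edges. The 14 WT libraries pooled held 967 sites there, or 0.282 times the autosomal mean (exact Poisson 95% interval 0.264 to 0.30), and the 13 MGMT libraries 641 sites, or 0.259 (0.239 to 0.279). Single WT libraries had 0.132, 0.280 and 0.382 (lowest, median and highest) and MGMT libraries 0.224, 0.271 and 0.385, so the ranges of the genotypes overlapped. In naked DNA the MGMT library (0.225) lay below both WT libraries (0.282 and 0.288), as G sites did in 34.6% of all genes tested. A shorter run at chr3:60700001-60730000 had 0.414 in WT and 0.392 in MGMT cells. Such intervals cover counting error only. They take pooled sites as independent, although libraries of a set share positions, so they can be too narrow.

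In LRP1B the run was deeper and longer in MGMT cells. WT cells had it at chr2:141020001-141140000, 120 kb with 797 sites, or 0.271 times the autosomal mean (exact Poisson 95% interval 0.253 to 0.291), and in the same stretch MGMT cells had 140 sites, or 0.0659 (0.0554 to 0.0778). Single WT libraries had 0.213, 0.266 and 0.410 and MGMT libraries 0.0333, 0.0671 and 0.105. No MGMT library reached the lowest WT library, and this held under solvent, under TMZ and in naked DNA (1 MGMT library against 2). How many other stretches of the genome separate in this way was not counted. G sites alone numbered 380 in WT and 58 in MGMT libraries. In MGMT cells the run extended over chr2:141000001-141220000, 220 kb at 0.174 times the autosomal mean, where WT cells had 0.408.

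**Figure D4:**
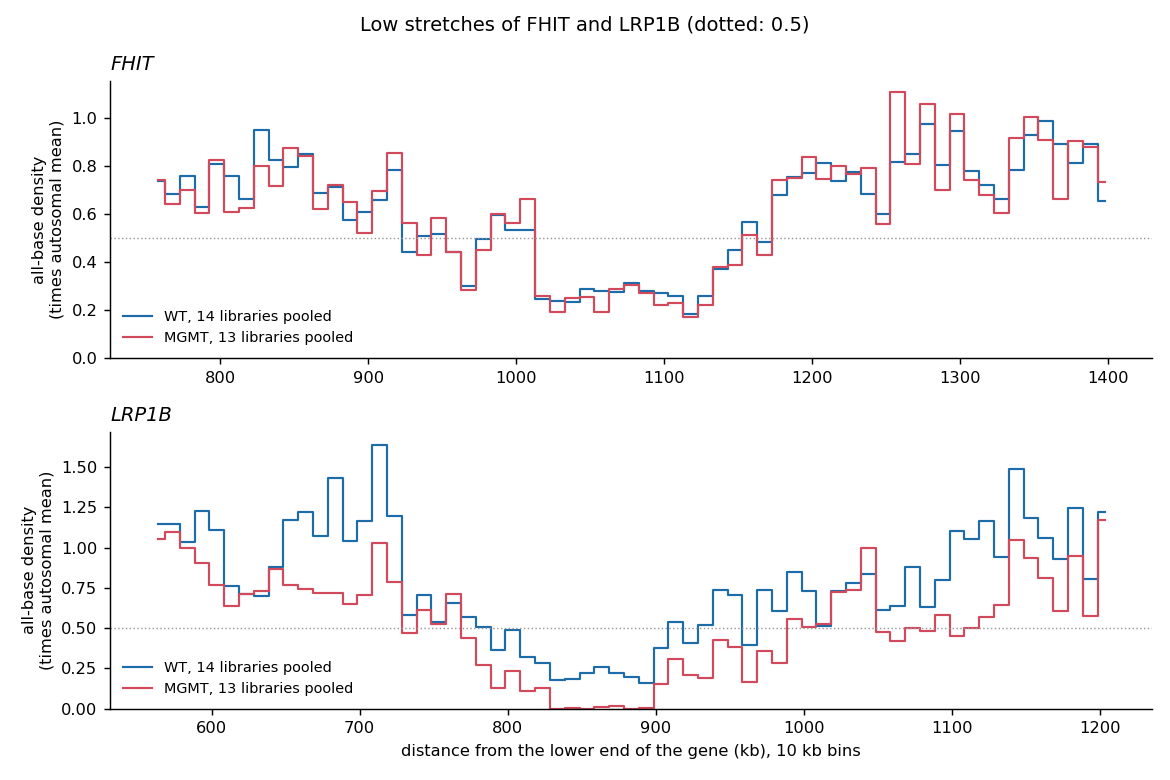
All-base density (times the autosomal mean, y axis) in 10 kb bins of FHIT and LRP1B (distance from the lower coordinate of the gene, x axis), pooled over 14 WT and 13 MGMT libraries, with a dotted line at 0.5. The FHIT stretch has the same edges in both genotypes (0.282 and 0.259), and the LRP1B stretch is deeper in MGMT cells (0.0659 against 0.271).

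The core of the LRP1B stretch, chr2:141060001-141130000, was chosen after its values were seen. It spans the 10 kb bins of LRP1B with at most 3 sites in the 13 MGMT libraries together. The low MGMT count of the core thus follows from the choice, and the MGMT interval is no test of it. Its 70 kb held 7 sites in the 13 MGMT libraries, where 1239 would lie at the autosomal mean, or 0.00565 (exact Poisson 95% interval 0.00227 to 0.0116). Of these, 5 were in solvent and 2 in TMZ libraries, 8 of the 13 libraries had none, and 1 of the 7 was also present in a WT library of the same set. The 14 WT libraries held 348 sites, or 0.203 (0.182 to 0.225), from 0.0283 in WT solvent replicate 3 with 3 exposures, which had 1 site, to 0.462. MGMT and WT libraries did not overlap, although that WT library lay close to the highest MGMT library at 0.0255. The choice by low MGMT counts favours this gap, and other stretches were not counted for it.

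Sites of score under 30, which the counts above leave out, numbered 136 in MGMT and 187 in WT libraries in this core. At the autosomal mean, 1239 sites of score 30 or more would lie there in MGMT and 1715 in WT libraries. The counts of low score thus stood in nearly the same proportion as library depth, unlike those of score 30 or more. In MGMT cells sites of low score outnumbered those of score 30 or more. Of the 754 bins of 10 kb in the 5 genes, 3 had no site of score 30 or more in MGMT cells, all in LRP1B, and none was empty in WT cells. A count of 0 allows up to 3 of the 177 sites that a bin would hold at the autosomal mean, a density of 0.0169. The longest stretch without a site in MGMT cells was 20856 bp in LRP1B (chr2:141054949-141075804), against 2229 bp in WT cells, and the next in the gene was 19313 bp. The longest in the other genes was 5979 bp in MGMT and 6105 bp in WT cells, both in IMMP2L and nearly at the same place, and 3103 bp or less elsewhere.

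**Figure D5:**
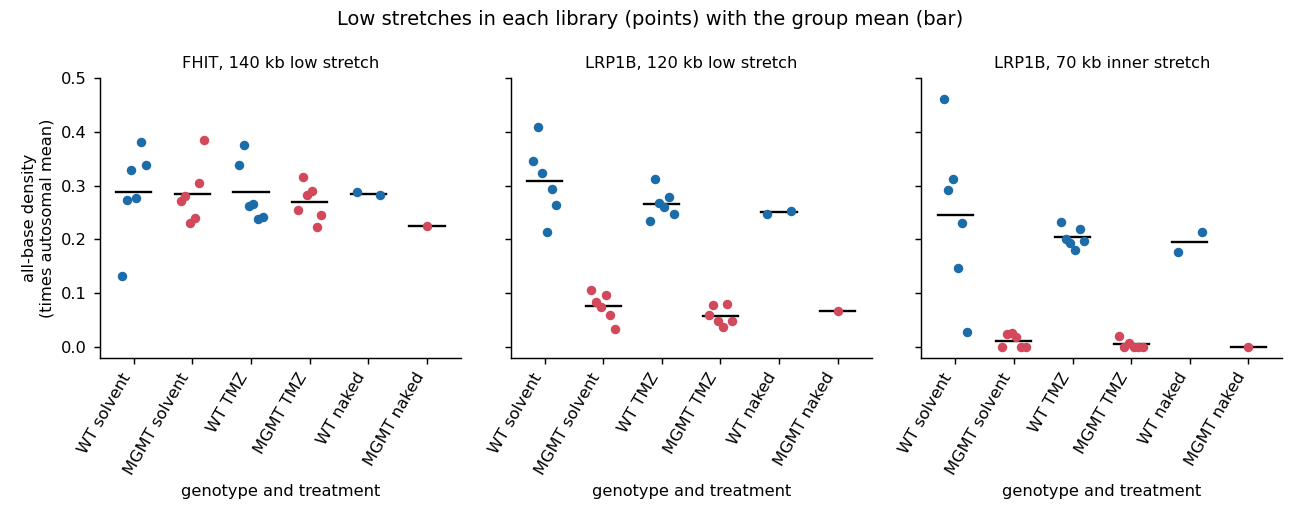
All-base density (times the autosomal mean, y axis) of the low stretches in each library (points, with group means as bars) by genotype and treatment (x axis). In FHIT the genotypes overlap, and in the LRP1B stretches MGMT libraries lie at or near 0, with a highest value of 0.105 in the longer stretch and 0.0255 in its core. The core was chosen by its low MGMT counts.

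G sites were spread over both strands in proportions that differed by gene. On the plus strand of the chromosome lay a mean of 44.0% of G sites in IMMP2L, 45.8% in FHIT, 48.8% in LRP1B, 53.5% in MACROD2 and 54.1% in WWOX in WT cells under TMZ. In WT naked DNA the values were 44.9%, 47.5%, 49.0%, 52.6% and 54.1%. Over both genotypes the solvent means were 46.9%, 48.5%, 47.9%, 51.7% and 52.0%, beside 44.3%, 46.2%, 48.4%, 53.2% and 53.8% under TMZ, and this difference was not tested. FHIT and IMMP2L are annotated on the minus strand and MACROD2 and WWOX on the plus strand, so in these 4 genes the majority of marked guanines lay, by the mean, on the strand that has the sequence of the transcript, in TMZ-treated cells and in naked DNA. In single windows the plus-strand share over all libraries ran from 39.9% to 60.2%.

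None of the 5 strand ratios was called between TMZ-treated cells and naked DNA by limma-trend (0% of 546 genes with enough sites called, 0 with an unadjusted p under 0.05). The largest estimate was -0.07 for FHIT (95% interval -0.34 to 0.19). None was called between MGMT and WT cells under TMZ either (0% called, 7 with an unadjusted p under 0.05). Both counts of unadjusted p lie below what chance alone would give. The test weighs all libraries alike, also those with few G sites, so it could miss real differences. That none was called is therefore no evidence that the strand ratios were equal.

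The genes whose G density relative to naked DNA followed that of WWOX, MACROD2, LRP1B and IMMP2L most closely over the 24 cell libraries were sought among genes of at least 500 kb on other chromosomes. MACROD2 was nearest to ZNF385D (Pearson r = 0.933, the highest of 292 candidates, whose median was 0.105), and IMMP2L to the same gene (r = 0.881 of 273, median 0.207). WWOX was nearest to TRAPPC9 (r = 0.926 of 292, median -0.127) and LRP1B to SNTG1 (r = 0.865 of 275, median 0.284). Among the 5 genes, MACROD2 and IMMP2L had r = 0.882, LRP1B and IMMP2L 0.789, MACROD2 and LRP1B 0.678 and WWOX and MACROD2 0.519, while FHIT and WWOX had -0.528. These coefficients are descriptions: the libraries fall into genotypes, treatments and sets that all genes share, and the points also share depth.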

How the data were processed

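The 5 genes, the gene lists and the tests were chosen with earlier results of these data known. As deposited, the headerless tables give for each library chromosome, position counted from 0, strand, base and a score from 0 to 42, as the values show; each position and strand occurs once, so they are sites and not read counts. Per the submitters' processing notes, FastQC 0.11.9, Trimmomatic 0.38 and 0.39, cutadapt, Bowtie2 2.3.5.1, GATK 4.2.0.0, SAMtools 1.12, bedtools 2.29.2 and GRCh38 were used; their settings, the removal of duplicates and how scores arise are not given in the sources used here. The base was checked against RefSeq GRCh38.p14 promoter sequence and was equal at 55024 of 55024 sites of a naked DNA library. Positions are printed counted from 1.

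Sites of score 30 or more were counted in the 20037 protein-coding gene bodies and in 50 kb windows, where each site counts once, so that deep libraries can saturate. Features reaching 10 sites in 3 or more libraries entered limma voom (limma 3.58.1 in R 4.3.3), with libraries scaled by trimmed log ratios (30% of the ratios and 5% of the mean levels cut off), 9 group means over all 27 libraries, two-sided tests and Benjamini-Hochberg adjustment over all genes or windows at a threshold of 0.05. Strand ratios took 0.5 as a prior and limma-trend, over genes with at least 10 G sites on each strand in every library. Counting and figures used Python 3.11.15, numpy 2.4.6 and pandas 2.3.3. The fits were tested on simulated data without sets of libraries that share sites. For genotypes under TMZ, 97% of genes changed 2-fold and 22% of those changed 1.25-fold were called. For all-base windows under solvent these were 100% and 6%. Small changes can thus be missed. The text names the 5 genes in every comparison, for likeness the gene of at least 500 kb on another chromosome with the highest correlation (that of FHIT is not reported here), the lowest and highest window of each gene, and up to 3 called windows per gene and direction; windows under 0.5 and single genes of the lists were named after their values were seen. Fewer copies of a region and fewer marks per copy cannot be told apart in these counts. The depth of each library limits a gene's values to the site counts given. Replicates share numbers across groups. Deviations of same-numbered libraries correlated above 0.1 in 7 of 12 pairs of genotypes (0.0136 to 0.783) and 8 of 12 pairs of treatments (-0.0369 to 0.834). Same-numbered WT and MGMT libraries of a treatment and exposure number always fell in the same set. Pairing by number was thus uneven and is not settled. The main fits have no block, and blocks by replicate number or set are given as alternatives. Alternatives were other sizes, scores, filters and window lengths, only the groups compared, blocks, and libraries left out. Median-of-ratios sizes always came with limma-trend in place of voom. Those with the sets, the first MGMT solvent library, naked DNA by genotype, other bases of the gene, strand ratios over only the groups compared, or a replicate block over only the groups of the exposure comparison were chosen after seeing the data.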

Additional observations from a re-analysis of the deposited data

Results flagged for a closer look

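Among 40 groups of 6 libraries (density of G or all-base sites of each gene, by genotype and treatment), 10 held a library far from the other 5 by Dixon's gap test. Chance flags about 1 in 20 such groups. All 10 were replicate 1 or 2 of a group with 1 exposure, and densities are times the autosomal mean.

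FHIT was low in the first WT solvent library, with a G density of 0.530 where the others had 0.710 to 0.779, and in the first MGMT solvent library, with 0.558 (others 0.733 to 0.811) for G sites and 0.633 (0.757 to 0.800) for all bases. These are the libraries with 27.8% and 43.7% of sites at G. WWOX was high in replicate 1: 1.21 for G sites in WT under TMZ (others 1.12 to 1.15), 1.09 in MGMT under TMZ (0.955 to 1.01), and 1.10 for all bases in MGMT under solvent (0.870 to 0.895). IMMP2L was high in replicate 2: 1.34 for G sites in WT under TMZ (others 1.06 to 1.16), 1.06 in MGMT under solvent (0.897 to 0.952), 0.998 in MGMT under TMZ (0.791 to 0.833), and 1.09 for all bases in MGMT under TMZ (0.847 to 0.930). WWOX and IMMP2L thus stood out in different replicates, each in both genotypes. What sets these libraries apart was not tested.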

How the results depend on the processing

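Of 405 alternative values for single genes, 343 kept their direction and their side of the threshold. With counts and levels included, 459 of 548 were rated unchanged. The number of the 5 genes called between TMZ and solvent (2) was 1 with the autosomal total as size and 1 at a score of 40 or more. It was 4 with only the groups compared, 4 without the first set of libraries and 0 relative to other bases of the gene. It was 0 to 2 when replicates were left out. IMMP2L was called lower under TMZ in 5 of 14 alternatives (estimates from -0.315 to 0.040 over all 14). MACROD2 was called lower in 3 of 14 (from -0.160 to 0.027). Between genotypes under TMZ the 4 calls became 2 with limma-trend on median-of-ratios sizes and 0 relative to other bases. They became 2 to 4 without a replicate. For 3 against 1 exposures the count of 0 became 3 with only the groups compared, with or without the replicate block. It was 1 without the first set, 0 to 1 without a replicate and 0 with limma-trend on median-of-ratios sizes. All-base calls under solvent (4) ranged from 1 to 4 and called windows (67) from 18 to 50 without a replicate. The 1 low window became 6 at a threshold of 0.5, 0 with no minimum score and 2 in naked DNA. Levels over 12 TMZ libraries relative to naked DNA moved, with sites of all bases as denominator, from -0.07 to -0.53 for FHIT, -0.15 to -0.61 for WWOX, -0.01 to -0.47 for MACROD2, 0.02 to -0.45 for LRP1B and -0.04 to -0.50 for IMMP2L; that denominator holds the larger share of G in naked DNA. With the replicate number as a block over the 24 cell libraries, 4 genes were called between TMZ and solvent, as in the fit of those libraries without a block. Other replicate block fits over the cell libraries or all 27 changed no call of the 5 genes. Whether the numbers pair libraries is not settled. With the sets as a block WWOX was no longer called between genotypes under TMZ (adjusted p = 0.0618).

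Directions turned mostly in small, uncalled values. Relative to other bases of the gene, TMZ against solvent gave 0.052 for FHIT (called lower in the main fit), 0.012 for WWOX, 0.027 for MACROD2 and 0.040 for IMMP2L. Genotypes under TMZ gave 0.067 for WWOX and 0.022 for MACROD2 (both called lower in the main fit) and -0.0025 for FHIT. With the autosomal total, WWOX gave 0.067 for TMZ against solvent and IMMP2L -0.026 against naked DNA. With limma-trend on median-of-ratios sizes, FHIT gave -0.026 for the interaction and IMMP2L -0.017 against naked DNA. The IMMP2L value against naked DNA was -4.1e-05 with no filter. Without the first set the interaction was -0.023 for FHIT and 0.023 for WWOX. Leaving out a replicate number, or the first MGMT solvent library with 1 exposure alone, the ranges that crossed 0 were -0.061 to 0.018 for WWOX between TMZ and solvent, -0.011 to 0.065 for FHIT between genotypes under TMZ, and -0.104 to 0.015 for all-base FHIT under solvent. For the interaction they were -0.077 to 0.036 for FHIT, -0.107 to 0.038 for WWOX and -0.099 to 0.039 for LRP1B. Against naked DNA they were -0.107 to 0.119 for MACROD2, -0.034 to 0.133 for LRP1B and -0.090 to 0.087 for IMMP2L. Except where the setting itself leaves out libraries or genes, the cause was not tested.

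Counts over all genes moved by over 1.5 times in these cases. TMZ against solvent (1791): 3199 with no filter, 247 and 321 without replicate 2 or 3, 726 with sets as a block, 1 relative to other bases. Genotypes under TMZ (1170): 173 with limma-trend on median-of-ratios sizes, 2047 with only the groups compared. Genotypes further: 336 and 372 without replicate 2 or 3, 272 with sets as a block, 0 relative to other bases. Exposures (0): 214 with no minimum score, 28 with no filter, 114 with only the groups compared, 116 without replicate 1, 64 without the first set, 1 with sets as a block. Naked DNA (12): 0 with limma-trend on median-of-ratios sizes, 124 with the autosomal total, 40 with no minimum score. Naked DNA further: 6 at a score of 40, 78 with only the groups compared, 0 with the replicate block. Naked DNA with libraries left out: 47, 0 and 51 without replicate 1, 2 or 3, 83 without the MGMT solvent library, 148 without the first set. Naked DNA split by genotype: 5. Interaction (1): 0 with limma-trend on median-of-ratios sizes, 0 without replicate 2 or 3, 2 without the first set. All-base (1173): 1819 with limma-trend on median-of-ratios sizes, 1779 with the replicate block, 194 and 335 without replicate 2 or 3. Windows (6801): 4334 with no minimum score, 805 and 2201 without replicate 2 or 3.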
